A study of Mus musculus with 8 samples.

Results

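The genes described here are 9 components and regulators of the complement system, C1s1, C2, C3, C4b, Cfb, Cfd, Serping1, Cd55 and Cd59a. They were chosen by symbol, and all 9 are among the 25509 genes of the count table. RNA was sequenced from mouse lung cells labelled as fibroblasts, with and without CD249 on their surface, 4 libraries of each. The design asks how the 2 fractions of one lung differ. CD249 is glutamyl aminopeptidase, a membrane enzyme encoded by Enpep. All cells came from lungs of wild-type C57Bl6/J mice numbered 2, 7, 8 and 10, and the labels name no treatment, transgene or reporter. Age and sex are not given in the sources used here. Fibroblasts were gated as lung cells without CD45, CD326 and CD31, so the gate is defined by what the cells lack, and the same lung gave the CD249+ and the CD249− cells of each mouse.

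Complement is a set of plasma and membrane proteins that tag surfaces for removal. The classical pathway starts when C1q binds a target and activates the proteases C1r and C1s, which cleave C4 and C2. The alternative pathway runs through factors B and D, and both routes meet at the cleavage of C3, which can go on to the membrane attack complex. C1 inhibitor acts in the fluid phase, and CD55 and CD59 protect the cell's own membrane. The liver makes most plasma complement, and fibroblasts and other tissue cells are known to make several components locally.

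Library totals ran from 23011383 to 31906414 estimated counts, with 15456 to 16526 genes detected per library. Enpep stood at 5.13 to 17.3 CPM (counts relative to the library total, scaled by TMM) in CD249− libraries and at 175 to 329 CPM in CD249+ libraries, in the direction of the labels. Of 14524 genes tested with edgeR's quasi-likelihood test, 30.8% were called at an adjusted p under 0.05, 16.9% as higher and 13.9% as lower in CD249+ cells. All adjusted p values of single genes below come from that test, with Benjamini-Hochberg adjustment over all genes tested, unless another tool is named. Fold changes are CD249+ over CD249− and are given as log2 with the standard error (SE) of the fit. Core collagen genes, taken here as a reference for fibroblast RNA, were all higher in CD249+ cells (8 of 8, summed level 4225 to 10790 CPM against 14070 to 24860 CPM). Whether they follow fibroblast content or differ between kinds of fibroblast was not tested. Endothelial markers were all lower (12 of 12, summed level 13650 to 17890 CPM against 4284 to 8047 CPM). The endothelial sum was thus above the core collagen sum in CD249− libraries and below it in CD249+ libraries. Pecam1, the gene of CD31, stood at 1499 to 2031 CPM in CD249− and 448 to 959 CPM in CD249+ libraries, although the gate left out cells with CD31. Both fractions thus held endothelial RNA beside that of fibroblasts. In bulk RNA, fewer cells of a type and less RNA per cell cannot be told apart, and the part of these shifts in the complement results was not tested.

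Of the 9 complement genes 8 passed the filter on low counts. Of these 8, 7 were higher in CD249+ cells, 0 were lower and Cd55 was not called, against the 16.9% of all tested genes called higher. But scaled to the core collagen genes, 0 of the 8 were higher and 1 was lower, where 404 of all 14524 tested genes were higher and 11019 lower. Without collagen scaling, DESeq2 and limma-voom also called 7 of the 8 higher and 0 lower. In edgeR with TMM scaling, no member had an unadjusted p under 0.05 in the lower direction. The median log2 fold change of the 8 was 1.45, against -0.02 over all genes tested. All 7 genes were higher in CD249+ cells of 4 of 4 mice, and the 2 groups of libraries overlapped for Cfb. The library of mouse 2 was the lowest of its fraction for all 8 genes, in CD249− and in CD249+ cells alike. Core collagen was also lowest in both libraries of mouse 2 (4225 and 14070 CPM summed), and endothelial markers were highest there (17890 and 8047 CPM summed). Leaving out both libraries of mouse 2 kept 7 of the genes called, at log2 fold changes of 0.91 for Cfb to 2.55 for C4b.

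**Figure D1:**
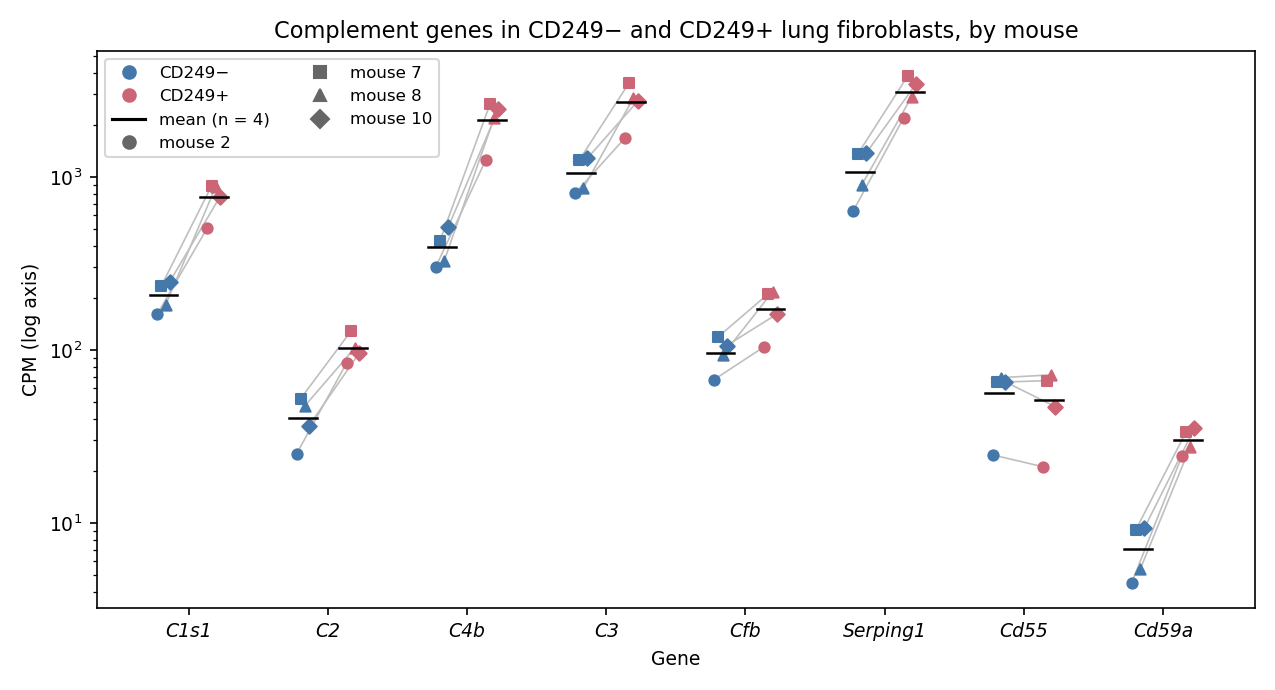
Level of each of the 8 tested complement genes in the 8 libraries, in CPM on a log axis, with blue for CD249− and red for CD249+ libraries, a symbol for each mouse, a grey line joining the 2 fractions of a mouse and a black bar at the mean (n = 4). Every line climbs except those of Cd55, which stay near level or fall, and the round symbols of mouse 2 are lowest throughout. Scaled to core collagen genes, none of these rises was called, where 404 of all 14524 tested genes were called higher and 11019 lower.

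The protease that opens the classical cascade was among the genes with clear differences. C1s1 (ENSMUSG00000038521.17, chromosome 6, 124530345 to 124542359, minus strand, GRCm38) encodes the C1s protease, which cleaves C4 and C2. In CD249− libraries of mice 2, 7, 8 and 10 it stood at 161, 235, 182 and 248 CPM, and in CD249+ libraries at 508, 888, 879 and 768 CPM. The lowest CD249+ library lay above the highest CD249− library. The difference was 3.68-fold (log2 fold change 1.88 with an SE of 0.21, adjusted p = 0.000146). Its exons overlap the antisense gene Gm16567, and the libraries do not mark strand. Of all 75-base windows in its transcripts, 13.0% also occur in the paralog C1s2 and 11.8% in Gm16567, and summing it with C1s2 left the value at 1.88.

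C4b showed the largest fold change of the 8 tested genes. It encodes complement C4, whose fragment C4b attaches to targets and joins a fragment of C2 to form the classical C3 convertase. C4b (ENSMUSG00000073418.4, chromosome 17, 34728380 to 34743882, minus strand, GRCm38) had levels of 301, 426, 326 and 513 CPM in the CD249− fraction of mice 2, 7, 8 and 10. The CD249+ cells of the same mice gave 1258, 2636, 2203 and 2459 CPM, each more than the highest CD249− library. The difference was 5.46-fold (log2 fold change 2.45 with an SE of 0.26, adjusted p = 0.000118), and the ratio within a mouse ran from 4.17 in mouse 2 to 6.77 in mouse 8. C4a, a paralog with which 22.7% of the 75-base windows of C4b are shared, is not analysed here, so the share of these counts that belongs to either gene is uncertain.

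C2, the protease partner of C4b in the convertase, moved less. C2 (ENSMUSG00000024371.14, chromosome 17, 34862604 to 34898265, minus strand, GRCm38) had 25, 52.3, 47.4 and 36.5 CPM in the CD249− fraction of mice 2, 7, 8 and 10, and 84, 128, 103 and 95.7 CPM in their CD249+ fraction. The groups did not overlap, and the difference was 2.55-fold (log2 fold change 1.35 with an SE of 0.22, adjusted p = 0.00141). The readthrough gene Gm20547 spans C2 and Cfb on the same strand and contains 37.0% of the 75-base windows of C2. With C2 and Gm20547 summed the value was 1.40 (adjusted p = 0.000817).

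C3, the component on which all routes converge, was among the more abundant transcripts of both fractions. C3 (ENSMUSG00000024164.15, chromosome 17, 57203970 to 57228136, minus strand, GRCm38) gave 803, 1248, 859 and 1284 CPM for the CD249− fraction of mice 2, 7, 8 and 10. In CD249+ cells it gave 1680.5, 3508, 2864 and 2734 CPM, with the lowest again above the highest CD249− value. C3 was 2.57-fold higher in CD249+ cells (log2 fold change 1.36 with an SE of 0.25, adjusted p = 0.00237). None of its 75-base windows occurs in another gene. Lung epithelium can also make C3, and epithelial markers summed to 10210 CPM in the CD249+ library of mouse 10 against 156 to 1123 CPM in the others. Without that library the log2 fold change of C3 was 1.36 (adjusted p = 0.00686), but the part of epithelial RNA in the C3 result was not tested.

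The alternative pathway was represented by Cfb and Cfd. Factor B, the product of Cfb (ENSMUSG00000090231.10, chromosome 17, 34856374 to 34862518, minus strand, GRCm38), binds C3b and forms the alternative C3 convertase after cleavage by factor D. CD249− cells of mice 2, 7, 8 and 10 gave 67.3, 119, 92.8 and 106 CPM of Cfb. CD249+ cells gave 104, 211, 217 and 161 CPM. The groups overlapped, since the CD249+ library of mouse 2 lay below the CD249− libraries of mice 7 and 10. Cfb was called (1.80-fold, log2 fold change 0.85 with an SE of 0.24, adjusted p = 0.0238). It was no longer called after dropping 1 library (CD249− of mouse 2 or 8, CD249+ of mouse 7 or 8) or both libraries of mouse 7, 8 or 10 (adjusted p = 0.0561 to 0.135). Gm20547 contains 69.9% of the 75-base windows of Cfb, and with Cfb and Gm20547 summed the value was 0.93 (adjusted p = 0.0133).

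Cfd encodes factor D, the protease that cleaves factor B and a product of fat cells. Cfd (ENSMUSG00000061780.5, chromosome 10, 79890853 to 79892655, plus strand, GRCm38) had 0 counts in 6 of the 8 libraries. The CD249+ libraries of mice 7 and 10 held 31 and 9 counts (1.10 and 0.308 CPM). It did not pass the filter on low counts and was not tested. A count of 0 allows up to 3 counts, which is 0.09 to 0.125 CPM in these libraries, for counting error only. Of 7 fat cell markers 2 were tested and 1 was higher, and Adipoq and Lep were at 0 in all 8 libraries.

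Among the regulators, the fluid-phase inhibitor and the membrane regulator Cd59a rose with TMM scaling, and Cd55 did not pass the test. Serping1 (ENSMUSG00000023224.12, chromosome 2, 84765387 to 84775444, minus strand, GRCm38) encodes C1 inhibitor, which blocks C1r and C1s and also the proteases of the contact system. Its CD249− levels in mice 2, 7, 8 and 10 were 638, 1351, 899 and 1367 CPM. It reached 2188, 3829, 2917 and 3450.5 CPM in CD249+ cells. The groups did not overlap, and the difference was 2.91-fold (log2 fold change 1.54 with an SE of 0.27, adjusted p = 0.00198). No 75-base window of Serping1 occurs in another gene.

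Cd59a encodes CD59a, a lipid-anchored protein that stops the membrane attack complex from closing. Cd59a (ENSMUSG00000032679.12, chromosome 2, 104095801 to 104115354, plus strand, GRCm38) had CD249− levels of 4.52, 9.14, 5.38 and 9.33 CPM in mice 2, 7, 8 and 10, and CD249+ levels of 24.3, 33.6, 27.6 and 35.1 CPM. Per length it was the lowest of the 7 genes that rose, and its groups lay well apart. The difference was 4.24-fold (log2 fold change 2.09 with an SE of 0.26, adjusted p = 0.000293).

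Cd55 encodes decay-accelerating factor, which dissociates the C3 convertases on the cell's own surface. Cd55 (ENSMUSG00000026399.12, chromosome 1, 130439027 to 130462744, minus strand, GRCm38) had CD249− levels of 24.7, 64.9, 69.1 and 65.4 CPM in mice 2, 7, 8 and 10. The CD249+ levels were 21.1, 66.4, 71.7 and 47.0 CPM. It was higher in CD249+ cells of 2 of 4 mice, by little, and lower in those of mice 2 and 10. Its log2 fold change was -0.12 (with an SE of 0.39, adjusted p = 0.849), with a 95% interval from -1.0 to 0.76, which is 0.499-fold to 1.69-fold. That interval does not reach the intervals of C1s1 (1.42 to 2.34), C4b (1.87 to 3.03), Cd59a (1.5 to 2.67), Serping1 (0.94 to 2.14), C3 (0.81 to 1.91) or C2 (0.85 to 1.85), but it overlaps that of Cfb (0.31 to 1.39). These intervals come from the fit without a mouse term, so they leave out the pairing of fractions by mouse. With mouse as a block in edgeR, Cd55 stood at -0.154 (SE 0.113, adjusted p = 0.33) and Cfb at 0.821 (SE 0.111, adjusted p = 0.000589). Scaled to the core collagen genes Cd55 was lower in CD249+ cells, with a log2 fold change of -1.75 (adjusted p = 0.000324).

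Both membrane regulators come from the same libraries, so their ratio does not depend on how libraries are scaled. Per kilobase of exon, Cd59a stood at 0.365 ± 0.116 of Cd55 in CD249− cells and at 1.87 ± 0.906 in CD249+ cells (SD, n = 4). The 2 fractions did not overlap, with 0.49 as the highest CD249− ratio and 1.03 as the lowest CD249+ ratio. C4b relative to C3 went from 0.338 ± 0.0218 to 0.715 ± 0.0651 (SD, n = 4), with a narrow spread in CD249− cells of 0.308 to 0.361. C1s1 relative to its partner protease gene C1ra went from 0.889 ± 0.104 to 1.09 ± 0.0303, and Cfb relative to C3 from 0.168 ± 0.0217 to 0.117 ± 0.0142 (SD, n = 4). Each of these 4 ratios gave an exact two-sided permutation p of 0.0286, the smallest that 4 against 4 libraries allow. Adjusted over the 15 ratios computed, it was 0.0536, past the threshold for none of them. These permutations split the 8 libraries freely, so they leave out the pairing of fractions by mouse.

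Relative to summed core collagen CPM, no complement gene passed the threshold after adjustment. Serping1 was 0.145 ± 0.0149 of the collagen sum in CD249− cells and 0.144 ± 0.0179 in CD249+ cells (SD, n = 4, exact two-sided permutation p = 0.857). C4b relative to collagen went from 0.0553 ± 0.0108 to 0.0972 ± 0.00938, while Cfb went from 0.0137 ± 0.00266 to 0.0079 ± 0.00118 (SD, n = 4, exact permutation p = 0.0286 and adjusted p = 0.0536 for each). In edgeR with libraries scaled to the 8 core collagen genes, the median of all genes shifted by -1.64 to -1.66. There, C4b stood at 0.81 (SE 0.40, adjusted p = 0.0606), Cd59a at 0.55 (adjusted p = 0.214) and C1s1 at 0.25 (adjusted p = 0.582). Serping1 stood at -0.02 (adjusted p = 0.966), C2 at -0.25 (adjusted p = 0.578), C3 at -0.27 (adjusted p = 0.529) and Cfb at -0.79 (adjusted p = 0.0758). The median of the 8 genes was -0.13 under that scaling, above the all-gene median of -1.66.

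**Figure D2:**
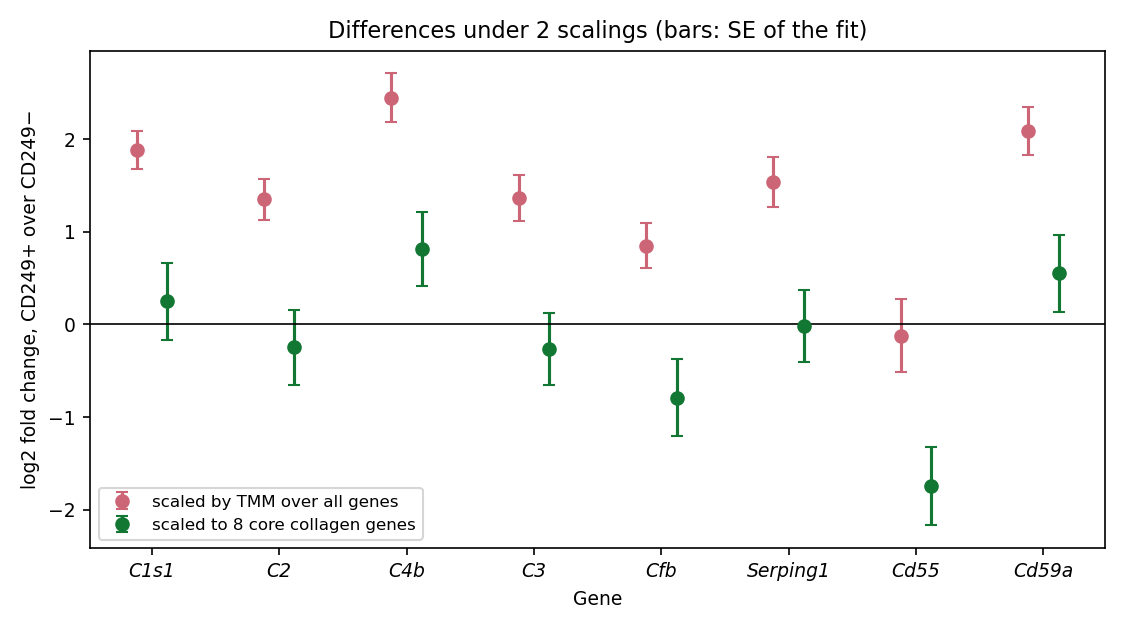
log2 fold change of CD249+ over CD249− for the 8 tested genes under 2 scalings, with bars for the SE of the fit, red for TMM over all genes and green for scaling to 8 core collagen genes. With TMM, 7 genes lie above 0 and Cd55 lies at -0.12. With collagen scaling, the values run from -1.75 for Cd55 to 0.81 for C4b, and 4 genes that were above 0 with TMM lie below it.

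**Figure D3:**
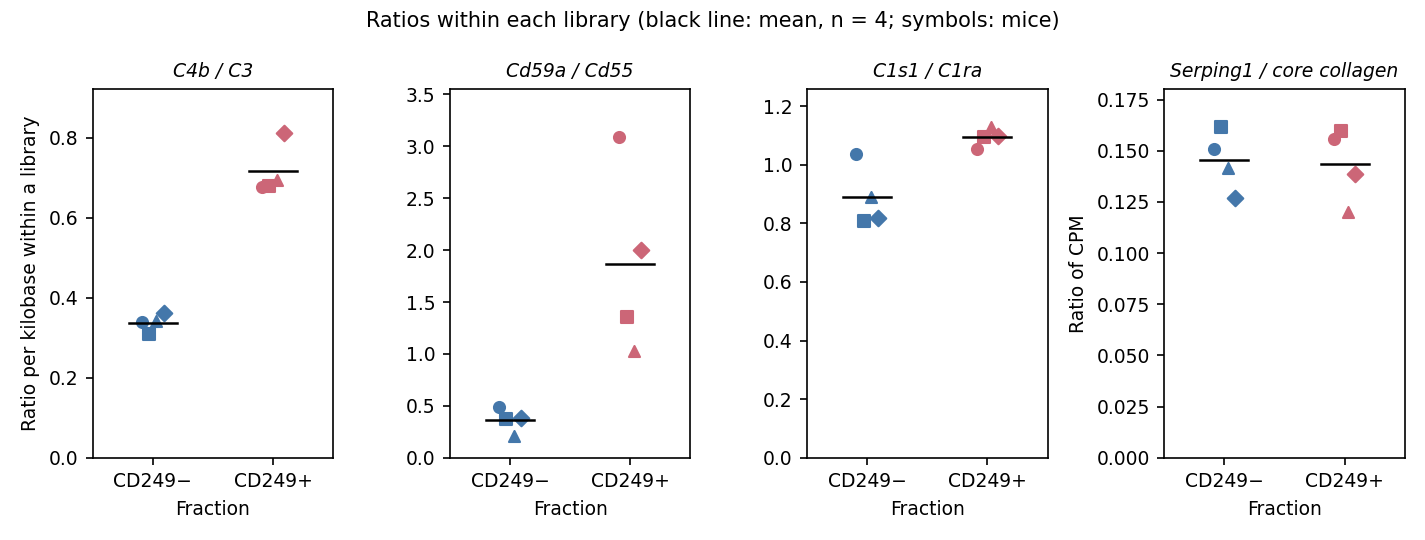
Ratios between genes within each library, per kilobase of exon for the first 3 panels and of CPM for the fourth, with blue for CD249− and red for CD249+ libraries, a circle for mouse 2, a square for 7, a triangle for 8 and a diamond for 10, and a black line at the mean (n = 4). The C4b to C3, Cd59a to Cd55 and C1s1 to C1ra ratios do not overlap between the fractions, and the Serping1 to collagen ratios do (means 0.145 and 0.144).

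Promoter sequence is shown for C3, C1s1 and Cd59a, which rose with TMM scaling, and for Cd55 as the regulator that did not pass the test. RefSeq promoter windows on GRCm38.p6 matched 5 of the 9 genes (C1s1, C3, Cfd, Cd55 and Cd59a), and the 250 bases before the start site were searched on both strands for 5 motifs. These were the TATA box (TATAAA), a C/EBP motif (TTGCNNAA), a GAS motif (TTCNNNGAA), an interferon response motif (GAAANNGAA) and the NF-kappaB motif. They occur in 12.4%, 9.56%, 7.02%, 7.13% and 7.25% of 32851 such windows of all genes. Sequences are printed 5′ to 3′ on the strand of the gene, ending at the base before the start site, with motif matches in capitals.
C3: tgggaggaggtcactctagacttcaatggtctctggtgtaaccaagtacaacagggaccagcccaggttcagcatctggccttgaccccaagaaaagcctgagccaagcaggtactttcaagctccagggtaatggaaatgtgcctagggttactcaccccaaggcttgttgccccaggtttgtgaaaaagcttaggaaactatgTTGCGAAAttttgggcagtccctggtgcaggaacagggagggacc
C1s1: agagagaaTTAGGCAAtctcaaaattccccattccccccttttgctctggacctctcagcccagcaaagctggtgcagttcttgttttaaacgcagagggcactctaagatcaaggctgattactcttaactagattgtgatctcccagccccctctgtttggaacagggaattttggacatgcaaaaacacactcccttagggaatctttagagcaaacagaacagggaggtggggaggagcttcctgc
Cd59a: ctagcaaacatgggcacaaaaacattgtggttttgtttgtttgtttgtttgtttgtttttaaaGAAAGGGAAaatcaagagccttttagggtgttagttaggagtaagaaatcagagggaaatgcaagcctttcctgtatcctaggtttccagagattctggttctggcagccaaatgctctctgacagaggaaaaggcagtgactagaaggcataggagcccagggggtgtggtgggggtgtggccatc
Cd55: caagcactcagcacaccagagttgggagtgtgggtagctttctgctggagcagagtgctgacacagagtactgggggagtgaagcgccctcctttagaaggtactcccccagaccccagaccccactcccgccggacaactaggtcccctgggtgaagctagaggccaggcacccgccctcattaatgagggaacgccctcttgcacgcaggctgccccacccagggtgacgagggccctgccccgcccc
The C3 window (chr17:57228137-57228386, minus strand) holds the C/EBP motif 45 to 38 bases before the start. The C1s1 window (chr6:124542360-124542609, minus strand) holds it on the other strand, 242 to 235 bases before the start. The Cd59a window (chr2:104095551-104095800, plus strand) holds an interferon response motif 187 to 179 bases before the start. The Cd55 window (chr1:130462745-130462994, minus strand) holds none of the 5 motifs, nor does that of Cfd. In GENCODE M21 the Cd55 window lies within an intron of the antisense gene Gm16083, and the windows of C3, C1s1 and Cd59a lie outside any gene. A match of letters is a description and shows no binding.

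Levels of different genes were compared per kilobase of annotated exon. In CD249+ cells Serping1 led at 1332 ± 306 CPM per kilobase, followed by C3 at 524 ± 147, C4b at 376 ± 108 and C1s1 at 243 ± 56.5 (SD, n = 4). Serping1 ranked 11 to 23 among 13987 protein-coding genes in CD249+ libraries and 37 to 120 in CD249− libraries. C3 ranked 45 to 88 in CD249+ libraries. Both were thus among the most abundant transcripts per length in CD249+ cells. Cfb followed at 61.4 ± 18.6, C2 at 26.5 ± 4.80, Cd59a at 16.6 ± 2.80 and Cd55 at 10.6 ± 4.72 CPM per kilobase (SD, n = 4). The ranges of C3 and C4b, of C4b and C1s1, and of Cd59a and Cd55 overlapped across CD249+ libraries, although the order of each pair was the same within 4 of 4 mice.

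In CD249− cells Serping1 (457.5 ± 154) and C3 (204 ± 49.1) led again, followed by C4b at 68.8 ± 17.1 and C1s1 at 66.0 ± 13.3 CPM per kilobase (SD, n = 4). C4b and C1s1 did not differ beyond their spread there, and 2 of 4 mice had them in that order. Cd55 at 11.6 ± 4.32 and C2 at 10.4 ± 3.14 also overlapped, and Cd59a was lowest at 3.92 ± 1.38 CPM per kilobase (SD, n = 4). By exon length Cd55 stood above Cd59a in CD249− cells and below it in CD249+ cells of 4 of 4 mice. Levels per length depend on the transcript length taken. With the longest transcript Cd59a stood above Cd55 in CD249+ cells of mice 2 and 10 alone (means 16.7 and 16.4 CPM per kilobase), and with the shortest coding transcript in those of 0 of 4 mice (17.8 and 41.5 CPM per kilobase). With the shortest coding transcript C3 stood at 4868 and Serping1 at 1860 CPM per kilobase in CD249+ cells, so the order of the leading pair turned round, as did that of C4b and C1s1 (398 and 1174 CPM per kilobase).

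**Figure D4:**
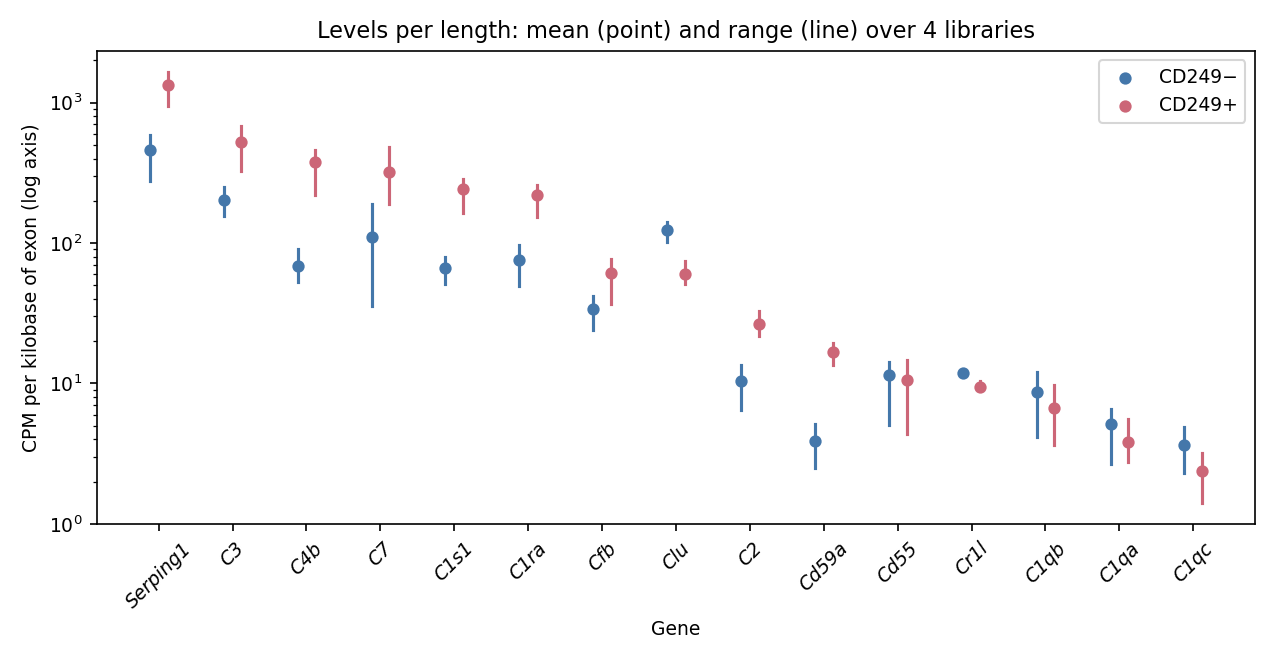
CPM per kilobase of exon on a log axis for 15 complement genes, ordered by their CD249+ mean, with the mean as a point and the range over 4 libraries as a line, blue for CD249− and red for CD249+. Serping1 and C3 are highest in both fractions (1332 and 524 in CD249+ cells), and the C1q genes, Cr1l and Cd55 lie near 10 or lower.

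The rest of the pathway was followed in a list of 46 other complement genes, of which 45 are in the table and 29 were tested. Of these 29, 7 were higher, 3 were lower and 19 were not called, where 16.9% of all tested genes were called higher and 13.9% lower, with a median log2 fold change of -0.35 against -0.02 over all genes. Scaled to the core collagen genes, 3 were higher (Vtn, C6 and Hc) and 17 were lower, where 404 of all 14524 tested genes were higher and 11019 lower. This list and the 9 genes were not compared by a test. The counts by role below are of few genes each, and no role was tested as a group.

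Of 9 tested genes of initiation 2 rose, where 16.9% of all tested genes were called higher. Both encode proteases of the C1 complex or near it, though neither was called with collagen scaling (C1ra -0.04 and C1rl 0.37). C1ra, which encodes the C1r protease that activates C1s, rose from 227 to 661 CPM on average (log2 fold change 1.54 with an SE of 0.24, adjusted p = 0.000948). Its CD249− libraries of mice 2, 7, 8 and 10 gave 148, 277, 195 and 288 CPM and its CD249+ libraries 459, 774, 742 and 667 CPM, with no overlap. C1rl, a C1r-like protease gene, rose from 5.17 to 20 CPM (1.95 with an SE of 0.32, adjusted p = 0.00139). The subunits of C1q, which macrophages make, were low and not called. C1qa stood at 5.30 and 3.97 CPM, C1qb at 9.38 and 7.33 CPM and C1qc at 6.98 and 4.56 CPM in CD249− and CD249+ cells (adjusted p = 0.447, 0.536 and 0.216). Leukocyte markers summed to 1433 to 2625 CPM in CD249− and 1160 to 3400 CPM in CD249+ libraries, and 1 of 12 was called, as lower.

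Of 4 tested genes of the terminal pathway, whose products assemble into the membrane attack complex, 2 were called higher, against 16.9% of all tested genes. C6 had CD249− levels of 0, 0.63, 0.125 and 1.259 CPM in mice 2, 7, 8 and 10, and CD249+ levels of 8.66, 4.99, 8.70 and 25.6 CPM (log2 fold change 4.53 with an SE of 0.96, adjusted p = 0.00562). The size of that difference rests on CD249− values near 0, and it gave 5.54 without the CD249− library of mouse 10 and 3.85 without the CD249+ library of mouse 10. Hc, which encodes C5, had CD249− levels of 6.58, 1.02, 3.42 and 10.6 CPM in those mice, and CD249+ levels of 9.62, 7.26, 27.7 and 129 CPM. The groups overlapped, and 1 library stood far above the others. Hc was called (log2 fold change 3.0 with an SE of 0.97, adjusted p = 0.0411), but it gave 1.46 (adjusted p = 0.171) without the CD249+ library of mouse 10, 2.02 (adjusted p = 0.0871) without both libraries of that mouse, and 2.42 in limma-voom (adjusted p = 0.199). Dropping 1 other library (CD249− of mouse 2, 7 or 8, CD249+ of mouse 8) or both libraries of mouse 7 or 8 ended the call too (adjusted p = 0.055 to 0.132). The same CD249+ library of mouse 10 held the epithelial sum of 10210 CPM, and the part of epithelial RNA in the Hc result was not tested.

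C7, another terminal component, was the most abundant of them per length. Its CD249− libraries of mice 2, 7, 8 and 10 gave 95.8, 469, 116 and 504 CPM and its CD249+ libraries 568, 1094, 505 and 1289 CPM. The lowest CD249+ value, from mouse 8, was just above the highest CD249− value, from mouse 10. C7 was not called (log2 fold change 1.54 with an SE of 0.56, adjusted p = 0.0632). It was called with mouse as a block (log2 fold change 1.81, adjusted p = 0.000268), by DESeq2 (adjusted p = 0.0383) and by limma-voom (adjusted p = 0.037).

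Of 3 fluid-phase regulators tested, 1 was called higher and 1 lower, where 16.9% of all tested genes were higher and 13.9% lower. Vtn, which encodes vitronectin, an adhesive plasma protein that also binds terminal complexes, rose from 0.63 to 3.42 CPM in CD249− libraries to 11.1 to 35.4 CPM in CD249+ libraries (log2 fold change 3.74 with an SE of 0.59, adjusted p = 0.0011, and 1.93 with collagen scaling). Clu, which encodes clusterin, an inhibitor of the terminal complex, fell from 426 ± 58.3 CPM to 208.5 ± 33.2 CPM (SD, n = 4), a log2 fold change of -1.03 with an SE of 0.14 (adjusted p = 0.000531). Its CD249− libraries lay between 350 and 482 CPM and its CD249+ libraries between 175 and 254 CPM. Endothelium and other cells can also make clusterin, and endothelial markers moved the same way, but the part of endothelial RNA in the Clu result was not tested.

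Of 5 other tested membrane regulators 2 were called higher and 1 lower, where 16.9% of all tested genes were higher and 13.9% lower. The 2 higher were Cd59b and Csmd1, at means of 3.04 and 4.35 CPM in CD249+ cells. They are below the level for description by rule and are named because they were few. Cd59b (2.89, adjusted p = 0.00932) was not called without both libraries of mouse 7 (adjusted p = 0.0578). Csmd1 (2.26, adjusted p = 0.0349) was not called after dropping 1 library (CD249− of mouse 2 or 8, CD249+ of mouse 7 or 8) or both libraries of mouse 2, 7 or 8 (adjusted p = 0.062 to 0.104). Neither was called with collagen scaling (1.59 and 0.52). Cr1l, which encodes the broadly expressed mouse regulator Crry, fell by a small amount, from 117 to 130 CPM in CD249− libraries to 93.3 to 109 CPM in CD249+ libraries (log2 fold change -0.33 with an SE of 0.09, adjusted p = 0.0159). That call ended when the CD249+ library of mouse 10 was dropped (adjusted p = 0.0505), or both libraries of mouse 7, 8 or 10 (adjusted p = 0.0578 to 0.0946). Of 7 tested receptor genes 1 was called, as lower, where 13.9% of all tested genes were lower. It was Itgb2, the beta subunit of complement receptors on leukocytes, which fell from 133 to 80.5 CPM (log2 fold change -0.72 with an SE of 0.24, adjusted p = 0.044). Its groups overlapped, and the call ended after dropping 1 library (CD249− of mouse 7 or 8, CD249+ of mouse 7, 8 or 10) or both libraries of mouse 7 or 8 (adjusted p = 0.0509 to 0.224).

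**Figure D5:**
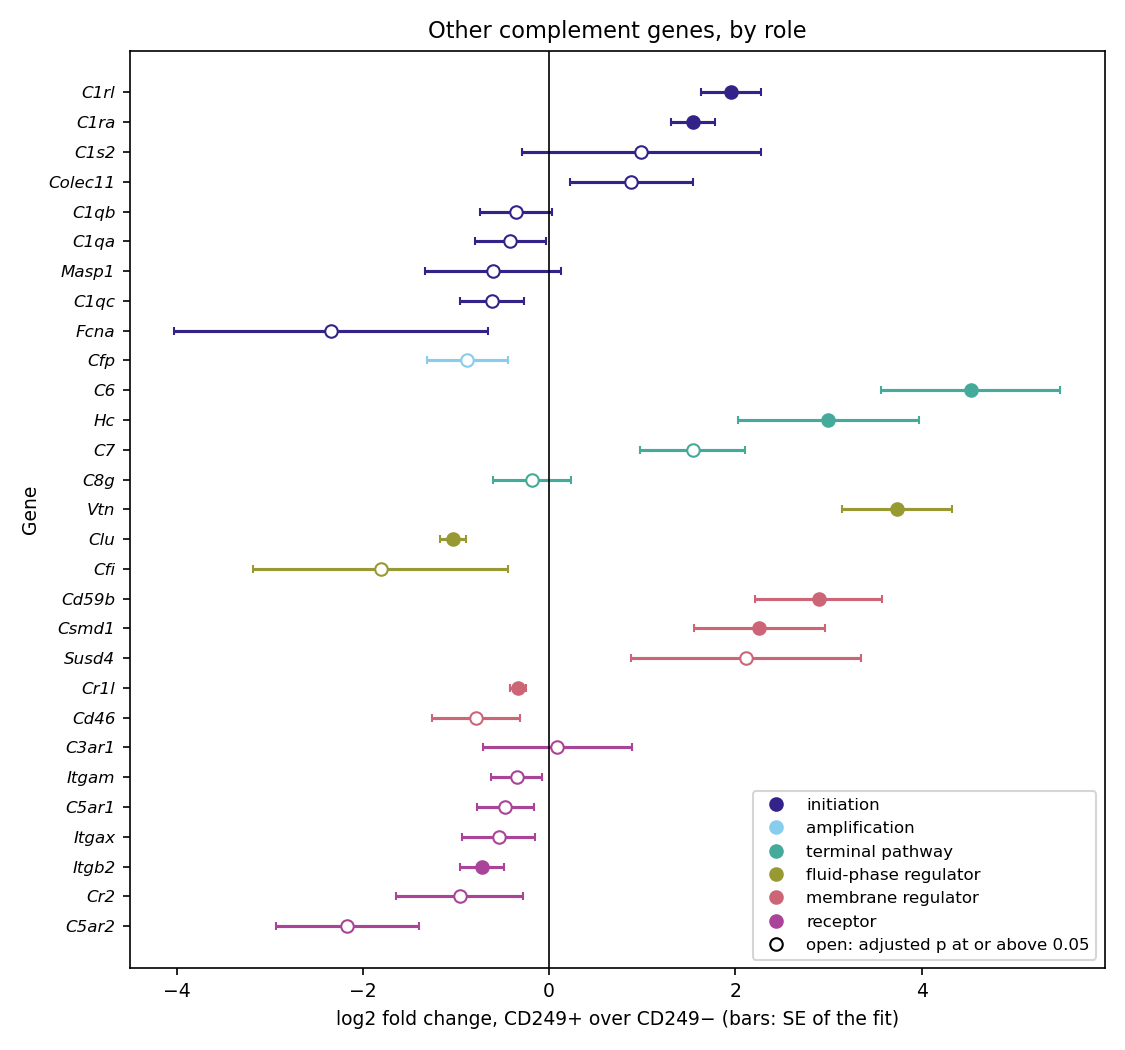
log2 fold change of CD249+ over CD249− for the 29 other tested complement genes, grouped by role in colour, with bars for the SE of the fit and filled points for genes called at an adjusted p under 0.05. The 7 filled points right of 0 are C1rl, C1ra, C6, Hc, Vtn, Cd59b and Csmd1, and the 3 left of 0 are Clu, Cr1l and Itgb2, while the C1q genes and most receptors are open and lie left of 0. With collagen scaling, 3 were higher and 17 lower, against 404 higher and 11019 lower of all 14524 tested genes.

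Several of these genes are neighbours in the genome. On chromosome 17, C4b, Cfb and C2 lie within the segment from 34728380 to 34898265 (GRCm38), and all 3 rose with TMM scaling. None of the 4 tested genes that lie wholly between them rose. Stk19 stood at -0.51 (adjusted p = 0.0186, lower), and Dxo (-0.17), Skiv2l (-0.19) and Nelfe (-0.08) were not called (adjusted p = 0.398, 0.357 and 0.633). On chromosome 6, C1rl, C1ra and C1s1 lie side by side and rose by 1.95, 1.54 and 1.88 on the log2 scale with TMM scaling. On chromosome 2 Cd59b lies next to Cd59a, and both were called higher, at 2.89 and 2.09. On chromosome 1, Cd55 and Cr1l lie apart from each other and stood at -0.12 (not called) and -0.33 (called lower).

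The tested genes of at least 10 CPM whose pattern over the 8 libraries was closest to each complement gene were found by the root mean square difference of centred log2 CPM, among 9682 genes. For Serping1 these were Rnase4 and Ecm2, a matrix protein gene (0.075 each), for C3 Oaf (0.088) and the perlecan gene Hspg2 (0.089), and for C1s1 the collagen hydroxylase gene P3h3 (0.093) and the elastin gene Eln (0.094). For Cfb they were Htra3 (0.105) and Sulf1 (0.134), for Cd59a Cpq (0.098), and for C2 Parp3 (0.129) and Il17d (0.142). C4b was closest to Pamr1 and Crispld2 (0.158 each). The nearest genes to Cd55 were Il33 and Fgl2, at 0.235 and 0.244, so its pattern had no neighbour as close as those of the other genes. These values describe 8 libraries that share mice and cell fractions.

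Markers of other cells were measured beside these results. Alveolar fibroblast markers were higher in CD249+ cells for 10 of 10 genes (summed level 656.5 to 1204 CPM against 6849 to 13360 CPM). Of 12 adventitial fibroblast markers 3 were higher and 4 lower (7308 to 8930 CPM against 4821 to 8224 CPM). Smooth muscle and pericyte markers were higher for 8 of 10 (299 to 923 CPM against 1403 to 2323 CPM). Mesothelial markers, of which 5 of 8 were lower, summed to 91.4 to 244 CPM and 34.0 to 78.5 CPM. Epithelial markers were higher for 4 of 9 tested, at 156 to 684.5 CPM and 468 to 10210 CPM, and 5 of 10 red cell and platelet markers were lower. Dissociation response genes were higher for 3 of 12 (10150 to 15330 CPM against 13770 to 28720 CPM). The list means of core collagen, alveolar fibroblasts, mesothelium, endothelium, and smooth muscle and pericytes each gave an exact two-sided permutation p of 0.0286 between fractions, the smallest possible, and 0.0629 adjusted over 11 lists. Among the gate genes, Pecam1 was lower (1667 and 611 CPM, log2 fold change -1.45, adjusted p = 0.0017), while Ptprc (123 and 63.1 CPM, adjusted p = 0.0635) and Epcam (7.46 and 7.98 CPM, adjusted p = 0.894) were not called. The part of any of these in the complement results was not tested.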

How the data were processed

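The authors deposited estimated counts at gene level, made from the sequenced reads, for 8 libraries of sorted lung fibroblasts, and 12.0% of them are fractional. Tools in the submitters' processing notes, which give no roles, are STAR 2.6.1, RSEM 1.2.28, bcl2fastq 2.20, R 3.6.3 and DESeq2 1.26.0. The notes also give the build GRCh38, which is human, while the identifiers are of mouse genes. The build behind the counts is thus not given in the sources used here. Per the labels' protocols, cDNA was primed with oligo(dT), amplified by SMART-Seq V4 and made into Nextera XT libraries, which do not mark strand. The protocols name no molecular identifiers, so amplified reads are not independent. The 92 spike-in entries, all 0, were left out.

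Counts were rounded, genes kept by filterByExpr, libraries scaled by TMM, and fractions compared by the two-sided quasi-likelihood F test of edgeR 4.0.16 (R 4.3.3) with the fraction as its single term and p-values adjusted by Benjamini-Hochberg over 14524 genes. On simulated counts with log2 changes of 1 and 2 for this comparison (14228 genes), it recovered 47.0% and 81.8% of changed genes, with 3.76% false calls. The simulation changed only 100 and 99 genes and held no mouse effect, whereas 30.8% of genes were called in the data. Its rates may thus not hold for the data. The columns are named Ctrl and LIF. They were tied to samples by the sample descriptions, which hold the same words, and to the fractions by the titles of those samples. Both fractions came from one lung per mouse, and deviations from group means correlated at 0.132 to 0.285 within a mouse and at -0.212 to 0.0515 between mice, so mouse numbers pair the libraries, and a mouse block was an alternative. Other alternatives were RLE factors, library size only, scaling to 8 core collagen genes, other count filters, DESeq2 1.42.0, limma-voom (limma 3.58.1), summed paralogs, other transcript lengths, libraries or mice left out, and mice 7 and 8 or 2 and 10 alone. Ratios and marker lists (mean log2 of CPM plus 1) were compared by exact permutation tests, for which the smallest p is 0.0286. They split all 8 libraries freely and leave out the pairing by mouse. Coordinates and lengths are from GENCODE M21 (GRCm38), with 99.0% of identifiers found when the version was ignored and 68.0% with the same version, and promoters from RefSeq (GRCm38.p6).

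The 9 genes, the lists and the tests were chosen with earlier results of these data known. Of the other complement genes and the contact and kinin list, every called gene with at least 10 CPM in the higher fraction was to be named. C7, the C1q genes, the genes neighbouring the members, Cd59b, Csmd1 and the cytokine response genes were named after their values were seen. Some items are left out of the lists and the text and are not reported here.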

Additional observations from a re-analysis of the deposited data

Results flagged for a closer look

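In 2 of 36 groups of 4 libraries 1 library stood far from the other 3, where chance gives about 1 group in 20. Cd55 stood at 24.7 CPM in the CD249− library of mouse 2, against 64.9 to 69.1 CPM in the other CD249− libraries. The CD249+ library of mouse 2 was also the lowest of its fraction, at 21.1 CPM, so the 2 fractions of that mouse were alike. Hc, the gene of C5, stood at 128.6 CPM in the CD249+ library of mouse 10, against 7.26 to 27.7 CPM in the other CD249+ libraries. The CD249− library of mouse 10 was the highest of its fraction too, at 10.6 CPM.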

How the results depend on the processing

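The 7 rises kept their direction and their call under RLE factors, library size only, both other count filters, DESeq2, limma-voom, the replicate block (C4b 2.43, adjusted p = 3.78e-06, Cfb 0.82, adjusted p = 0.000589), and mice 7 and 8 alone, and C1s1, C2, Cfb and Cd59a also did so with paralogs or overlapping genes summed. The paired fit changed no call of the 9 genes, and beside C7 it called Itgax lower (-0.72, adjusted p = 0.0455). Scaled to 8 core collagen genes, the log2 fold changes of C2 (-0.25), C3 (-0.27), Cfb (-0.79) and Serping1 (-0.018) turned negative. C1s1 (0.25), C4b (0.81) and Cd59a (0.55) were then not called, and Cd55 (-1.75) was. The counts were 0 higher and 1 lower of the 9 genes, and 3 higher and 17 lower of the other complement genes. All genes gave 404 higher and 11019 lower then, and 2106 higher and 2689 lower (43.9% higher, against 54.9%) with library size only.

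In mice 2 and 10 alone, 4 libraries, C1s1 (1.64), C3 (1.08), C4b (2.19), Cfb (0.61), Serping1 (1.49) and Cd59a (2.10) kept their direction without a call (adjusted p = 0.0625 to 0.309), leaving 1 of the 9 genes and 0 higher and 0 lower other complement genes called by edgeR. Calls were fewer over all genes too, with 570 higher and 98 lower of 14680 tested in that setting, against 2455 and 2013 of 14524 with all libraries. With only genes of at least 10 CPM, 4 other complement genes were higher, since fewer were tested. Cd55 changed sign in mice 7 and 8 alone (0.073), without the CD249+ library of mouse 2 (0.16) and without both libraries of mouse 10 (0.004), always without a call. With libraries left out, Cfb ran from 0.70 to 1.04, Cd55 from -0.35 to 0.16, the rises among the 9 genes from 6 to 7, and the other complement genes from 5 to 8 higher and 1 to 4 lower. The 5 came after dropping CD249− of mouse 2 or 8, CD249+ of mouse 8, or all of mouse 7 or 8, and the 1 after dropping CD249+ of mouse 10 or all of mouse 7 or 8. The cause was not tested. Added after seeing the data, the same settings gave 1 to 3 higher and 0 to 4 lower contact and kinin genes, and 0 to 7 higher and 0 to 5 lower cytokine response genes, with 3 higher in limma-voom, 2 with only genes of at least 10 CPM, and 1 to 6 with libraries left out. With no filter Cfd gave 6.36 (adjusted p = 0.0973), a value that depends on counts of 0.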

Other observations

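C1 inhibitor also controls the contact system, which releases kinins. Of a list of 13 genes of that system, its kinin arm and plasminogen activation, 6 were tested. The plasminogen activator genes Plat and Plau are among these 6. Of the 6 tested, 3 were higher and 2 were lower in CD249+ cells, where 16.9% of all tested genes were higher and 13.9% lower. Scaled to the core collagen genes, 1 was higher (Mme, 2.44) and 4 were lower, Plat among them (-0.94, adjusted p = 0.038). Of all 14524 tested genes, 404 were then higher and 11019 lower. Mme, which encodes neprilysin, a membrane peptidase that cleaves bradykinin, had CD249− levels of 3.98, 7.32, 1.46 and 10.4 CPM in mice 2, 7, 8 and 10, and CD249+ levels of 81.4, 80.5, 61.3 and 119 CPM (log2 fold change 3.87 with an SE of 0.49, adjusted p = 0.000327). The groups lay far apart. Bdkrb1, the inducible kinin receptor gene, rose from 9.77 to 38.6 CPM (1.98, SE 0.58, adjusted p = 0.0261). Its groups overlapped, and it was not called with collagen scaling (0.50), after dropping 1 library (either fraction of mouse 7 or 8, CD249+ of mouse 10) or without both libraries of mouse 7 or 8 (adjusted p = 0.0529 to 0.266). Plat, which encodes tissue plasminogen activator, rose from 179 to 295 CPM with TMM scaling (0.72, SE 0.17, adjusted p = 0.00877), but was not called without both libraries of mouse 8 (0.62, adjusted p = 0.0609). Ace, the gene of angiotensin-converting enzyme, which is abundant in lung endothelium, fell from 2043 to 867 CPM (-1.24, SE 0.20, adjusted p = 0.00127). At 1194 CPM the CD249+ library of mouse 2 was highest of its fraction, as it was for the endothelial sum. The part of endothelial RNA in the Ace result was not tested. Bdkrb2, the constitutive receptor gene, fell from 13.7 to 6.35 CPM (-1.11, SE 0.30, adjusted p = 0.0176), a call that ended without the CD249− library of mouse 2 or both libraries of mouse 2, 7 or 10 (adjusted p = 0.052 to 0.102).

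Several complement genes are known to respond to cytokines, and 13 genes of cytokine and acute phase responses were tested, of which 5 were higher and 0 lower, against those 16.9% and 13.9% of all genes. At an unadjusted p under 0.05 edgeR gave 6 higher and 1 lower, and DESeq2 and limma-voom also called 0 lower. Scaled to the core collagen genes, 0 were higher, also at an unadjusted p under 0.05, and 5 were lower, with Cebpb at -0.11 (adjusted p = 0.813). Of all 14524 tested genes, 404 were then called higher and 11019 lower. The transcription factor gene Cebpb had CD249− levels of 172, 290, 335.5 and 265 CPM in mice 2, 7, 8 and 10, and CD249+ levels of 573, 969, 727 and 765 CPM (log2 fold change 1.51 with an SE of 0.22, adjusted p = 0.000677), with no overlap. Nfkbiz (1.33), Ccl2 (1.68), Lcn2 (2.28) and Saa3 (3.31) were also called (adjusted p = 0.0221 to 0.0304), Saa3 at a mean of only 3.11 CPM in CD249+ cells. The groups of Nfkbiz, Ccl2 and Lcn2 overlapped, and the CD249+ level of Lcn2 was 10.6 ± 11.2 CPM (SD, n = 4). Each of these 4 calls ended after dropping the CD249− library of mouse 2 or both libraries of mouse 7 (adjusted p = 0.0528 to 0.098). Nfkbiz and Ccl2 also lost the call without CD249− of mouse 10, CD249+ of mouse 7 or 8, or all of mouse 8 or 10, Lcn2 without CD249− of mouse 7 or 8, CD249+ of mouse 10, or all of mouse 8 or 10, and Saa3 without CD249− of mouse 7, CD249+ of mouse 8, or all of mouse 2. Il6 (1.44, adjusted p = 0.101), Stat3 (0.17, adjusted p = 0.303) and Socs3 (0.09, adjusted p = 0.826) were not called.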
